A study of Homo sapiens with 6 samples.

Results

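The genes described here encode the protein subunits of the mitochondrial ribosome, those of the large subunit (MRPL) and of the small subunit (MRPS). They were found by symbol, as every gene with MRPL or MRPS and a number in the array annotation, and 77 of the 19775 genes measured met that rule through 142 probe sets. Of these loci, 48 are MRPL genes and 27 are MRPS genes, and 2 are non-coding loci that share the name. Each gene is represented by the brightest of its probe sets, taken over the 6 arrays. Expression was measured on 6 Affymetrix U133 Plus 2.0 arrays in the SW-1990 line, established human pancreatic adenocarcinoma cells that came from a metastasis in the spleen. Of these arrays, 3 came from cells carrying a scrambled short hairpin RNA (sh-Ctrl), and 3 from cells carrying a hairpin against PRLR, the prolactin receptor (sh-PRLR). Both groups had received the hairpin by lentivirus and were then kept in puromycin at 1 ug per ml for over 7 days, so the procedure is shared. Other differences between the infected populations cannot be told apart from an effect of the hairpin. The labels call the arrays biological replicates. The sources used here do not give how many hairpins were used or whether the cells were pools or clones. The cells labelled control and knockdown are those with the scrambled hairpin and the PRLR hairpin.

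Mitochondria translate a small set of messages from their own genome, nearly all for core subunits of the respiratory chain and ATP synthase. Their ribosome combines ribosomal RNA made in the organelle with proteins that are all encoded in the nucleus, made in the cytosol and imported. Some of these proteins descend from the bacterial ribosome, and others were added in mitochondria. The large subunit forms peptide bonds and holds the exit tunnel, and the small subunit binds the message and decodes it. Symbols do not always follow position: MRPS30 and MRPS18A are built into the large subunit.

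Values are log2 expression and differences are sh-PRLR minus sh-Ctrl, so a negative difference is a lower level in sh-PRLR. A gene is said to have risen or fallen where limma, with a variance that follows the level, gave an adjusted p under 0.05 over all 19775 genes. PRLR itself was dim. The mean of its 7 probe sets was 5.02 ± 0.22 (SD, n = 3) with the scrambled hairpin and 4.17 ± 0.22 with the PRLR hairpin. All 7 were lower in sh-PRLR, but none passed the test over probe sets. Its brightest probe set was lower by only 0.23, with overlapping groups (limma adjusted p = 0.811). The epithelial markers KRT8 (13.5), KRT18 (15.3), KRT19 (12.6), EPCAM (14.2) and CDH1 (13.9) were bright, while MUC1 (5.68) lay below the median gene level of 7.23. CDH1 fell by 0.17 (limma adjusted p = 0.0284). Above that median lay 1 of 6 fibroblast genes, 0 of 3 leukocyte genes and 1 of 4 endothelial genes chosen as markers, and of all these markers 0 passed in limma, with 0 at an unadjusted p under 0.05.

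Mitoribosomal protein messages were abundant in both groups. All 75 coding members lay above the median gene level, 60 of them in the top 20% of genes and 27 in the top 10%. Their levels ran from 8.56 for MRPL38 to 13.51 for MRPL3, with a median of 11.34. The coding members lie on 21 chromosomes. Of the non-coding loci, the antisense transcript MRPL20-AS1 was at 8.16 and the pseudogene MRPL45P2 at 4.11, and neither passed the test (limma adjusted p = 0.767 and 0.879). They are left out of the counts that follow.

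Few members differed between the groups, and those that did were lower in sh-PRLR. Of the 75 coding members, 0 rose, 5 fell and 70 did not pass. Across all genes tested 7.66% passed, of which the rises made up 3.34% of genes and the falls 4.32%. The 5 falls are 6.67% of the members, beside 8.17% of all genes above the median level, which is the range that holds every member, and in that range 6.43% of genes rose, beside 0 of 75 members. The share of members that fell was near the background. The genes that fell were MRPL1, MRPL16, MRPL46 and MRPL23, 4 of 48 MRPL genes (8.33%), and MRPS6, 1 of 27 MRPS genes (3.70%).

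The calls depended on the variance model and on scaling. Limma with its default variance model called 4 of all genes (0.0202%) and 0 members, with adjusted p between 0.139 and 0.282 for the 5 that fell. Centring each array on its own median also left 0 members past the threshold. Quantile normalisation kept all 5 falls, with limma adjusted p from 0.0065 for MRPL1 to 0.029 for MRPL23. Leaving out sh-Ctrl replicate 2 left 1 MRPL gene past the threshold, leaving out sh-Ctrl replicate 3 left 2, and of the runs with 1 array left out MRPS6 passed only in that without sh-PRLR replicate 1. At an unadjusted p under 0.05 the level-dependent fit held 17 members, beside 20.3% of all genes.

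MRPL1 forms the flexible stalk beside the site where spent transfer RNA leaves the ribosome. It was at 12.15, 12.19 and 12.29 on the sh-Ctrl arrays and at 11.96, 11.66 and 11.78 on the sh-PRLR arrays. Every sh-PRLR array lay below every sh-Ctrl array, and the fall of 0.41 was the largest of any member. The difference was -0.41 ± 0.08 (SE), with a 95% interval from -0.58 to -0.25 and an adjusted p of 0.00873 by limma. MRPL1 passed with each of the 6 arrays left out in turn (adjusted p from 0.0027 to 0.0441), and its adjusted p after median centring was 0.0527.

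MRPL16 lies near the peptidyl transferase centre, where peptide bonds form. Its levels were 11.36, 11.47 and 11.43 on the control arrays and 11.16, 11.14 and 11.09 on the knockdown arrays. The groups did not overlap, and the 3 arrays of a group lay close together. The difference was -0.29 ± 0.06 (SE; limma adjusted p = 0.0112), and the call was lost without sh-Ctrl replicate 2 (0.0666) and after median centring (0.117).

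MRPL46 is a mitochondria-specific protein of the central protuberance, the crest at the top of the large subunit. It read 10.31, 10.39 and 10.48 on the control arrays and 10.005, 10.08 and 10.02 on the knockdown arrays, again without overlap. The difference was -0.36 ± 0.07 (SE; limma adjusted p = 0.0130). Leaving out sh-Ctrl replicate 2 (0.0591) or replicate 3 (0.0566), or centring on the median (0.0781), ended the call.

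MRPL23 lines the mouth of the exit tunnel, where the new chain leaves the ribosome. Its sh-Ctrl arrays read 11.72, 11.82 and 11.75 and its sh-PRLR arrays 11.59, 11.57 and 11.45. The groups were apart, by less than for the genes above, with a difference of -0.23 ± 0.06 (SE; limma adjusted p = 0.0411). A second, dim probe set of MRPL23, at a level of 4.62, differed by 0.41 in the opposite direction and did not pass.

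MRPS6, a protein of the small subunit's platform, was among the brightest small subunit genes. It was at 12.78, 12.77 and 12.87 on the control arrays and at 12.65, 12.62 and 12.48 on the knockdown arrays, with no overlap and the lowest level on sh-PRLR replicate 3. The difference was -0.22 ± 0.06 (SE; limma adjusted p = 0.0396). MRPL23 and MRPS6 were the least secure of the 5 calls. Each passed with only 1 of the 6 arrays left out, sh-PRLR replicate 1, and their adjusted p reached 0.167 and 0.133 without other arrays.

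**Figure D1:**
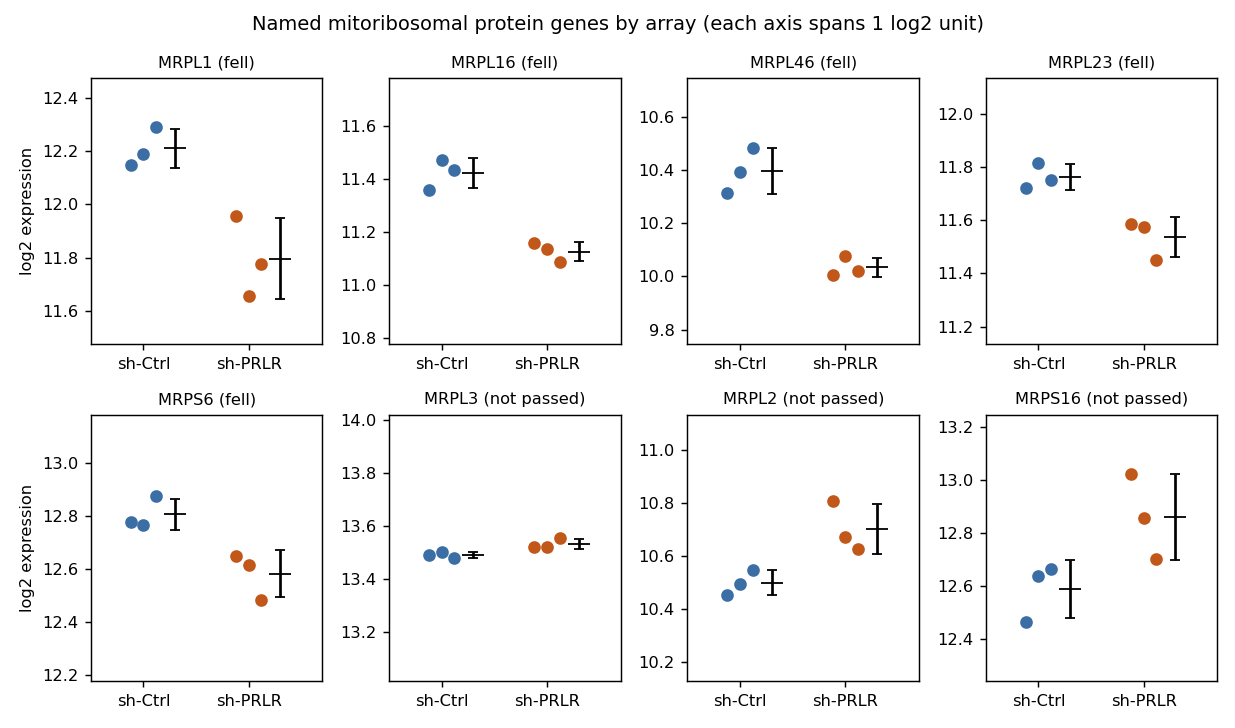
Log2 expression of 8 members on each array, blue for sh-Ctrl and orange for sh-PRLR, with the mean and SD of each group (n = 3) as bars. Each axis spans 1 log2 unit but starts at a different level. The 5 genes that fell show sh-PRLR below sh-Ctrl on every array, by 0.22 to 0.41, while MRPL3, MRPL2 and MRPS16 lie higher in sh-PRLR without passing the test.

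The start regions of the genes that fell are shown for comparison with those of members that did not pass. Sequences are from the RefSeq promoter table (GRCh38.p14), which has an entry for 67 of the 75 coding members and none for MRPL23, and cover 150 bases before to 30 bases after the transcription start. MRPL1 lies at chr4:77862680-77862859 on the plus strand, MRPL16 at chr11:59810749-59810928 on the minus strand, MRPL46 at chr15:88467359-88467538 on the minus strand and MRPS6 at chr21:34073428-34073607 on the plus strand. Capitals mark matches to CCGGAAG, a core that ETS-family factors such as GABP bind, or to AAGATGGC, a form of the core bound by YY1, on either strand. Only these exact letters were searched for, so other forms of either site are not marked or counted.
MRPL1: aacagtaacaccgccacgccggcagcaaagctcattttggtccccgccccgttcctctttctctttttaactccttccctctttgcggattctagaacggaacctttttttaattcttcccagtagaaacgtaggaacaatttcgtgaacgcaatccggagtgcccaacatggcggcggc
MRPL16: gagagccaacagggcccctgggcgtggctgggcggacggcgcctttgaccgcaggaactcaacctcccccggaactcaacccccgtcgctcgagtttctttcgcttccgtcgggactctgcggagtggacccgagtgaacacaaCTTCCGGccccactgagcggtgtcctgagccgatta
MRPL46: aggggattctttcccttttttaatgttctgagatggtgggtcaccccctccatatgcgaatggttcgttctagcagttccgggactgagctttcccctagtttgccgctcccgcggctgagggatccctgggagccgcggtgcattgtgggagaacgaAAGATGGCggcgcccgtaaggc
MRPS6: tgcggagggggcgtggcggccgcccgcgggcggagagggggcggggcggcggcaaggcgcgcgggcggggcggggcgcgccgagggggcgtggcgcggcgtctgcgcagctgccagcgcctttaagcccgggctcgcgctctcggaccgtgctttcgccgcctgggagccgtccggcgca
MRPL16 carries an ETS core over its start, on the strand opposite to the one printed, so that the printed letters are CTTCCGG. MRPL46 carries a YY1 core from base 9 to base 16 after its start. Neither exact set of letters occurs in the windows shown of MRPL1 or MRPS6. The MRPL1 window does hold aacatggc near its end, which differs from the YY1 letters only in having c for g. The MRPS6 window is rich in G and C (82.8%, beside 50.6% for MRPL1).

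Members that did not pass carried the same letters. The windows below are those of MRPL3 (chr3:131502942-131503121, minus strand) and MRPL51 (chr12:6493233-6493412, minus strand), among the brightest large subunit genes, and of MRPS16 (chr10:73252615-73252794, minus strand), the member with the largest difference upward.
MRPL3: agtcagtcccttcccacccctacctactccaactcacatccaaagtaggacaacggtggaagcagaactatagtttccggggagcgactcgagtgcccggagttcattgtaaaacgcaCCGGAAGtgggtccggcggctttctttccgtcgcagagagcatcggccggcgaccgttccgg
MRPL51: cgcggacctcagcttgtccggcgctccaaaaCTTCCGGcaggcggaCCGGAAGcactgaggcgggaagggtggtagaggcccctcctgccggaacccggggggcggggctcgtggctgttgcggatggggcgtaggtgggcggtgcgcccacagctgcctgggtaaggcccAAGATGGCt
MRPS16: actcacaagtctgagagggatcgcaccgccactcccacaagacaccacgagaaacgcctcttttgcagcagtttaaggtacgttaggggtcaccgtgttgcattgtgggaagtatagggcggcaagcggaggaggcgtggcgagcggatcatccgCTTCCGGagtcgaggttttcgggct
MRPL3 has 1 ETS core, from base -32 to base -26. MRPL51 holds 2 ETS cores, on opposite strands, and a YY1 core just after its start. In MRPS16 an ETS core lies from base 6 to base 12 after the start.

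Over the whole 300-base windows, from 250 bases before to 50 after the start, the ETS core occurred in 29 of the 67 members with an entry (43.3%) and in 16.5% of 15843 coding genes in the table. The YY1 core occurred in 20 members (29.9%) and in 4.66% of coding genes. At least 1 of these cores was found in 41 members (61.2%), beside 20% of coding genes, and both in 8 members (11.9%), beside 1.17%. In no member did they overlap each other. CGCATGCG, a core of the NRF1 site, occurred in 3 members (4.48%, beside 3.28%), and the E-box CACGTG, bound by MYC with MAX, in 9 (13.4%, beside 10.9%). These are matches of letters and not measured binding. The median difference between the groups was -0.04 for members with an ETS core and -0.06 for those without, and -0.03 and -0.06 for members with and without a YY1 core. It was 0.05 for the 9 members with an E-box and -0.07 for the 58 without, and 0.05 for the 3 members with the NRF1 core and -0.06 for the 64 without. None of the 4 genes that fell and have an entry holds an E-box or the NRF1 core, and these differences were not tested.

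**Figure D2:**
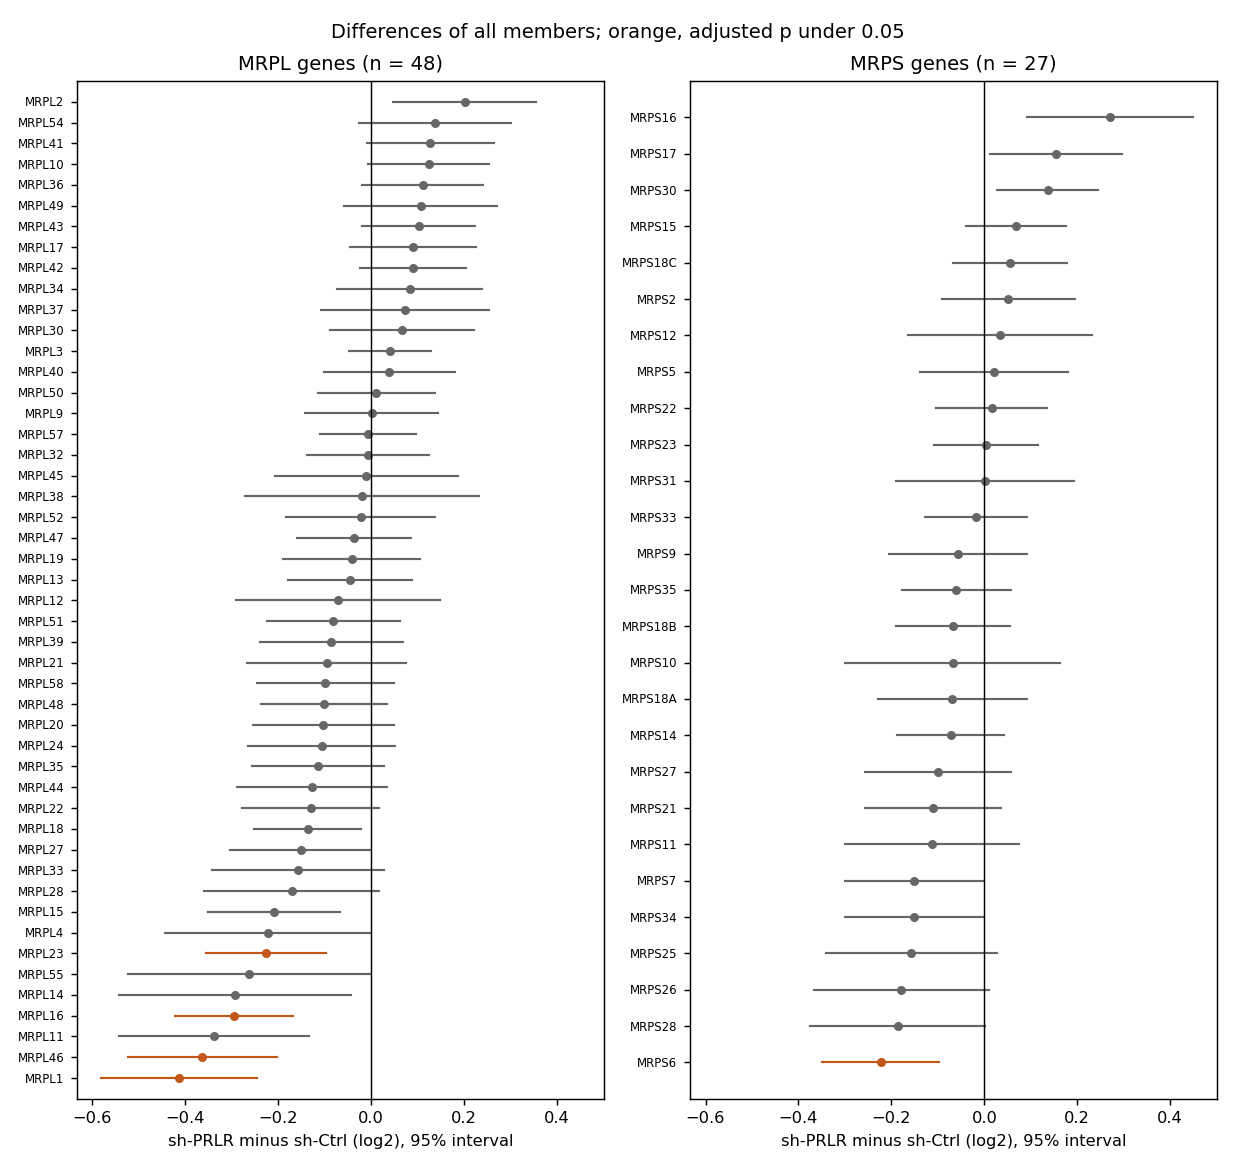
Difference between sh-PRLR and sh-Ctrl in log2 units for each of the 48 MRPL genes (left) and 27 MRPS genes (right), with 95% intervals from limma. Orange marks the 5 genes with an adjusted p under 0.05, all on the lower side. Most other points lie within 0.2 of 0, and the range runs from -0.41 for MRPL1 to 0.27 for MRPS16.

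Outside these genes the differences were small, in both directions. The median difference over the 75 members was -0.06, with quartiles at -0.13 and 0.04, and 48 of them (64.0%) were lower in sh-PRLR. Over all genes the median was -0.0013 and 50.1% were lower, and over genes above the median level these were -0.02 and 53.4%. The median was -0.06 for the MRPL genes, 32 of 48 of them lower, and -0.06 for the MRPS genes, 16 of 27 lower. The median size of a difference, up or down, was 0.10 for members and 0.24 for all genes. The standard error was also smaller for these bright genes, with a median of 0.07 beside 0.22.

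All 3 sh-PRLR arrays lay below all 3 sh-Ctrl arrays for 13 members (17.3%), beside 14.1% of all genes, and above them for 8 members (10.7%), beside 11.7%. In the other 54 members the groups overlapped. Of the members without overlap, 8 on each side did not pass.

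For most members the level-dependent fit bounded the difference closely. Its 95% interval lay within 0.5 of 0, a 1.41-fold change, for 70 of 75 members, among them all 27 MRPS genes. It lay within 0.3, a 1.23-fold change, for 55 members, 34 MRPL and 21 MRPS. These bounds rest on that variance model, and intervals under limma's default one were not counted. The largest fold of any member was 1.33. Less of a message in every cell and its loss from some of the cells cannot be told apart in such RNA pools.

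The members are described by their place in the ribosome, in groups set up with the values known and given without a test. Among the proteins of the stalks and of the centre that works with translation GTPases, MRPL1 fell, while MRPL11, MRPL12 and MRPL10 did not pass. MRPL1 forms a separate stalk, apart from that centre. MRPL11 binds ribosomal RNA at the base of the stalk of MRPL10 and MRPL12. It read 11.15, 11.29 and 11.53 on the control arrays and 11.08, 10.89 and 10.98 on the knockdown arrays. Its groups did not overlap, and its difference of -0.34 had an adjusted p of 0.0519 by limma, just outside the threshold. MRPL10, which anchors the copies of MRPL12, differed by 0.12 in the other direction with no overlap, and MRPL12 by -0.07.

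Around the peptidyl transferase centre, MRPL16 fell and the other members shared no direction. MRPL3, the brightest member of all, read 13.49, 13.50 and 13.48 on the control arrays and 13.52, 13.52 and 13.55 on the knockdown arrays. That was a difference of 0.04 with a 95% interval from -0.05 to 0.13 (limma adjusted p = 0.648). MRPL2 had the largest difference upward in the large subunit, with 10.45, 10.49 and 10.55 on the control arrays and 10.80, 10.67 and 10.63 on the knockdown arrays. Its groups did not overlap, but the difference of 0.20 (95% interval from 0.05 to 0.36) did not pass (limma adjusted p = 0.117). MRPL27 differed by -0.15.

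Of 7 proteins grouped around the exit tunnel, 6 were lower in sh-PRLR, with a median of -0.11, and MRPL23 fell. Of all 75 members 64.0% were lower, and a difference from that share was not tested. MRPL4 was among the dimmest members, at 9.16, 9.37 and 9.37 on the control arrays and 9.18, 9.01 and 9.05 on the knockdown arrays. These groups overlapped at 1 array of each, and the difference of -0.22 did not pass (limma adjusted p = 0.244). MRPL24 and MRPL22 differed by -0.11 and -0.13, while MRPL47, MRPL45 and MRPL17 lay at -0.04, -0.01 and 0.09. MRPL45 helps to hold the ribosome at the inner membrane, where new chains are inserted.

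In the central protuberance MRPL46 fell, and MRPL48, MRPL38 and MRPL40 differed by -0.10, -0.02 and 0.04. The arrays of MRPL38, the dimmest coding member, gave 8.43, 8.66 and 8.61 on the control arrays and 8.61, 8.49 and 8.55 on the knockdown arrays, so its arrays were mixed (limma adjusted p = 0.952). Among other large subunit genes, the bright MRPL57 and MRPL51 differed by -0.01 and -0.08 with overlapping groups. MRPL15, also bright, differed by -0.21 without overlap and did not pass (limma adjusted p = 0.0798). MRPL14, which sits where the subunits meet, differed by -0.29 with overlap.

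In the small subunit, MRPS16 had the largest difference upward of all members. It read 12.47, 12.64 and 12.66 on the control arrays and 13.02, 12.86 and 12.70 on the knockdown arrays. The groups did not overlap, although sh-Ctrl replicate 3 and sh-PRLR replicate 3 lay close together. The difference was 0.27, with a 95% interval from 0.09 to 0.45, and did not pass (limma adjusted p = 0.0734). Its second probe set, at a level of 9.53, differed by 0.07. MRPS16 passed without the dimmest 40% of genes (0.0423) and without sh-PRLR replicate 3 (0.0331).

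On the platform, MRPS6 fell, and MRPS11, MRPS15 and MRPS18C differed by -0.11, 0.07 and 0.05. The 4 head proteins grouped here, MRPS7, MRPS9, MRPS10 and MRPS14, were all lower, between -0.15 and -0.06, and none passed. All have a bacterial homolog, and the group does not cover the whole head. Of all MRPS genes 59.3% were lower. MRPS12 and MRPS5, which line the decoding site, differed by 0.03 and 0.02. Of the other members, MRPS17 (0.15) and MRPS30 (0.14) were higher without overlap and did not pass (limma adjusted p = 0.203 and 0.133). MRPS34 and MRPS25, the dimmest MRPS genes, differed by -0.15 and -0.16, without overlap, and did not pass (0.232 and 0.334). Both other probe sets of MRPS25 were also lower, by 0.32 and 0.31.

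Members were also split by descent, as proteins listed with a bacterial homolog and the remainder, called mitochondria-specific here. MRPS18A, MRPS18B and MRPL58 were counted in the remainder. Among MRPL genes with a homolog, 3 of 30 fell, 22 were lower and the median difference was -0.10. Among mitochondria-specific MRPL genes, 1 of 18 fell, 10 were lower and the median was -0.01. For the MRPS genes, taken by symbol, the medians were -0.06 in both classes, with 1 of 15 and 0 of 12 falls. Beside these counts, 8.17% of all genes above the median level fell and 53.4% were lower. Neither the difference between the classes nor that of a class from this background was tested.

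Probe sets of the same member often differed in sign. Of the 75 coding members 38 had 1 probe set and 37 had several, and in 14 of those 37 every probe set shared the sign of the main one. Of the 65 further probe sets 33 were lower and 32 higher in sh-PRLR, and even of the 15 with a level over 10 only 5 shared the sign of the main one. In some of these members the main difference lay near 0, as in MRPL9 and MRPS31 (both 0.0012), where a sign says little. In others, such as MRPL43 (0.10), it did not. When all 41091 probe sets with a single symbol were fitted together, 4.67% passed, and 1 of these 65 did. In that fit 3 main probe sets of members passed, those of MRPL1, MRPL16 and MRPL46, while MRPS6 (limma adjusted p = 0.0515) and MRPL23 (0.0581) did not.

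The further probe set that passed belongs to MRPL43, a mitochondria-specific large subunit protein. It read 9.19, 9.14 and 8.93 on the control arrays and 8.56, 8.498 and 8.5025 on the knockdown arrays, a fall of 0.57 (limma adjusted p over probe sets = 0.0138). The brighter main probe set of MRPL43 read 11.01, 11.01 and 11.06 on the control arrays and 11.13, 11.12 and 11.15 on the knockdown arrays, apart in the opposite direction, by 0.10, which missed the threshold (limma adjusted p = 0.339). Its remaining probe set differed by -0.02. The sources used here do not say which transcripts of MRPL43 each one reads. MRPL1, MRPL16, MRPL46 and MRPS6 each had only 1 probe set.

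**Figure D3:**
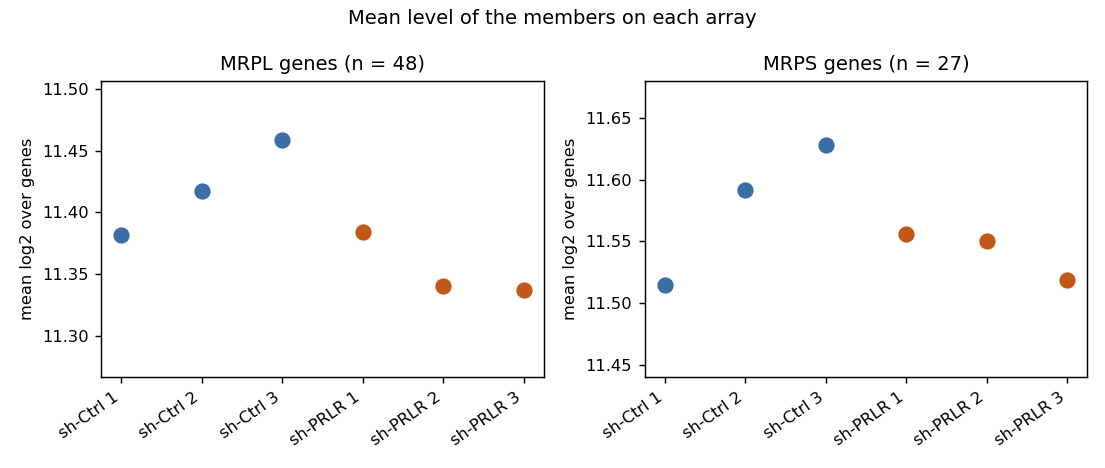
Mean log2 level over the 48 MRPL genes (left) and 27 MRPS genes (right) on each array, blue for sh-Ctrl and orange for sh-PRLR. The highest point in both panels is sh-Ctrl replicate 3, and sh-Ctrl replicate 1 lies within or below the range of the sh-PRLR arrays.

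The mean over the MRPL genes was 11.38, 11.42 and 11.46 on the sh-Ctrl arrays and 11.38, 11.34 and 11.34 on the sh-PRLR arrays. That over the MRPS genes was 11.51, 11.59 and 11.63, and 11.56, 11.55 and 11.52. In both subunits the groups overlapped, and the differences between group means, -0.07 and -0.04, stood beside SDs between the sh-Ctrl arrays of 0.04 and 0.06. A single array, sh-Ctrl replicate 3, was the highest of the 6 for 31 of 75 members, while sh-Ctrl replicate 1 was the lowest for 17 and sh-PRLR replicate 3 for 21. Without sh-Ctrl replicate 3 the median difference was -0.04 for MRPL genes and -0.03 for MRPS genes. It was -0.03 for MRPL genes without sh-PRLR replicate 2, and -0.04 and -0.03 in the same order without sh-PRLR replicate 3.

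Other genes of mitochondrial translation were counted from lists in the same fit, and limma's default variance model called none of them. Beside the list counts that follow, 6.43% of all genes above the median level rose and 8.17% fell. Of the 13 genes named by rule from these and the further lists below, 2 (NDUFB7 and NDUFA9) passed after median centring, and 2 (MAX and ATP5MC2) passed with every array left out in turn. Of the 4 measured mitoribosomal proteins with other symbols 0 passed and 1 had an unadjusted p under 0.05, and they include the small subunit protein DAP3 (0.14). Of 23 assembly factors, MRM2, which methylates the RNA of the large subunit, fell from 10.85, 11.0045 and 10.97 to 10.61, 10.55 and 10.77, by 0.30 without overlap (limma adjusted p = 0.0409), and passed in 1 of the 6 runs with an array left out. Of 15 aminoacyl-tRNA synthetases, which charge mitochondrial transfer RNA, LARS2 fell by 0.39 and RARS2 rose by 0.21 (limma adjusted p = 0.0150 and 0.0467). With arrays left out LARS2 passed in 2 of 6 runs and RARS2 in 1, and the average over the RARS2 probe sets differed by 0.38 and did not pass (0.706).

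Among 14 mitochondrial translation factors 3 rose and 1 fell, with a median of -0.01. These are 21.4% and 7.14% of the list, beside 6.43% and 8.17% of all genes above the median level, where all 14 lie. MTIF2, the factor that brings the initiator transfer RNA, read 12.09, 12.05 and 12.05 on the control arrays and 12.28, 12.26 and 12.24 on the knockdown arrays, a rise of 0.19 (limma adjusted p = 0.0316) that passed in 0 of the 6 runs with an array left out (0.0615 to 0.127). OXA1L, the insertase that takes new chains into the inner membrane, rose from 11.34, 11.43 and 11.41 to 11.66, 11.74 and 11.57 (0.26; limma adjusted p = 0.0283), and passed in 1 of those 6 runs. MTIF3, an initiation factor of the small subunit, rose by 0.22 (limma adjusted p = 0.0257), but passed in 1 of those 6 runs and differed by -0.25 when all its probe sets were averaged. TUFM, the elongation factor that delivers transfer RNA, fell from 12.65, 12.81 and 12.80 to 12.52, 12.59 and 12.38 (-0.25; limma adjusted p = 0.0405). Whether this list differs from the ribosomal proteins or from that background was not tested.

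Of 11 genes for the upkeep and transcription of mitochondrial DNA, 2 fell (18.2%) and 0 rose, beside 8.17% and 6.43% of all genes above the median level. This difference was not tested. TFAM, which packs mitochondrial DNA and starts its transcription, read 11.37, 11.25 and 11.51 on the control arrays and 11.06, 10.92 and 11.15 on the knockdown arrays (-0.34; limma adjusted p = 0.0316), and MTERF2 fell by 0.41 (0.0326). TFAM passed in 2 and MTERF2 in 1 of the 6 runs with an array left out. TFAM, read by an _x_at probe set, differed by -0.19 with its probe sets averaged (0.279) and by -0.22 without _s_at and _x_at probe sets (0.597), and did not pass in either. Of 10 nuclear regulators, MAX, the partner of MYC on the E-box, fell from 11.59, 11.59 and 11.58 to 11.29, 11.34 and 11.31 (-0.28; limma adjusted p = 0.00891). MAX differed by -0.24 with its probe sets averaged (0.273) and by -0.11 without _s_at and _x_at probe sets (0.878), and did not pass in either. MYC, GABPA, YY1 and NRF1 differed by -0.04, 0.10, 0.07 and 0.21 and did not pass.

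Of the respiratory chain and ATP synthase genes, which hold the partners of the proteins that these ribosomes make, 1 of 70 rose and 5 fell, 50 were lower and the median was -0.05. Rises, falls and lower genes were 1.43%, 7.14% and 71.4% of the list. Beside this stand 6.43%, 8.17% and 53.4% of all genes above the median level, where 64 of the 70 lie. The share that fell was near the background. The 5 genes that fell were NDUFB7 (-0.49), NDUFA9 (-0.40), NDUFB10 (-0.34), NDUFS7 (-0.47) and NDUFB11 (-0.24). They encode subunits of complex I, and complex I was not tested as a list. NDUFB7, read by an _s_at probe set, differed by -0.51 with its probe sets averaged (limma adjusted p = 0.326). Without _s_at and _x_at probe sets it differed by -0.53 (0.693), and it did not pass in either. ATP5MC2 rose by 0.28, but differed by -0.06 when its probe sets were averaged and by -0.39 without _s_at and _x_at probe sets. Of 22 import genes, TOMM22, a receptor of the outer membrane, fell by 0.29 (limma adjusted p = 0.0198), passing in 2 of the 6 runs with an array left out. Of 53 cytosolic ribosomal protein genes 0 passed in limma, with 1 at an unadjusted p under 0.05. Of these genes 21 were lower and the median was 0.02.

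**Figure D4:**
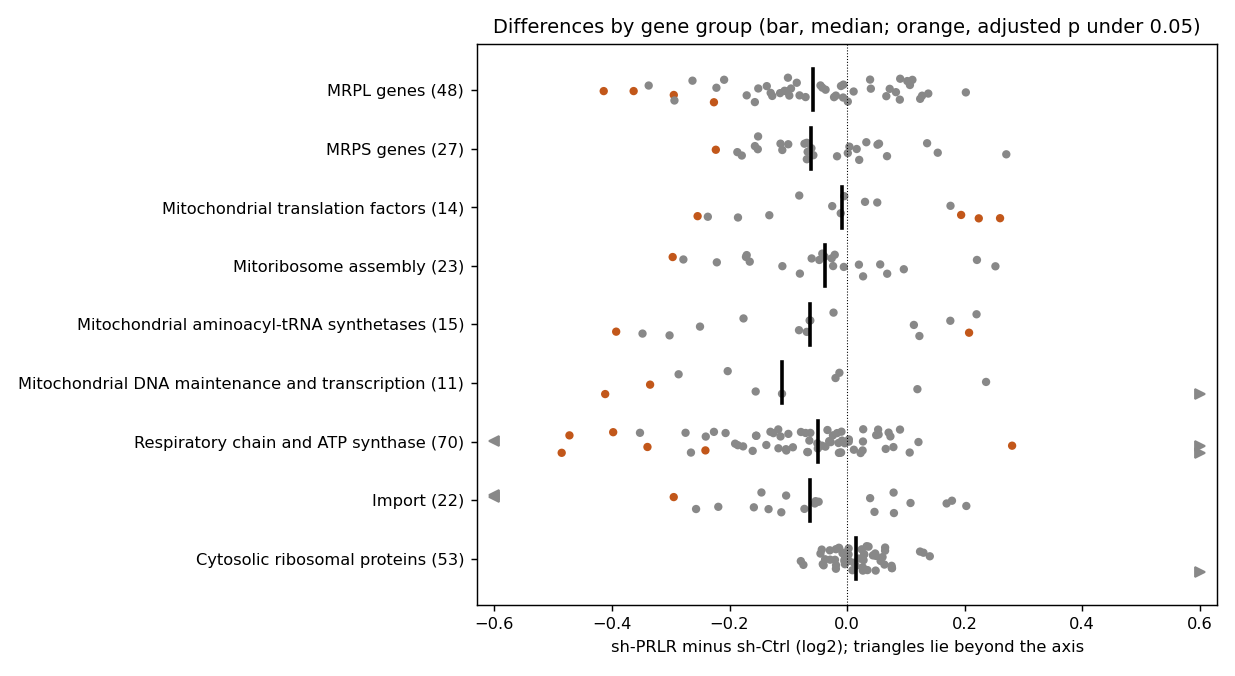
Difference between sh-PRLR and sh-Ctrl in log2 units for each gene of 9 groups, with the group size in brackets, 1 point per gene and a bar at the median. Orange marks an adjusted p under 0.05, and triangles stand for the 7 genes beyond the axis at 0.6. The medians of the MRPL and MRPS genes, both -0.06, lie beside -0.05 for the respiratory chain and 0.02 for cytosolic ribosomal proteins.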

How the data were processed

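Trizol-extracted, biotin-labelled RNA was hybridised to 6 arrays, 3 per group, per the labels' protocols. The labels name more than 1 amplification kit and do not say which was used. The authors deposited log2 values, 1 for each probe set on each array. The submitters' processing notes name MAS5, RMA and affy but give neither their roles nor versions. The linear mean with 2% trimmed at each end was 500 on all arrays, so the log2 values were used as scaled. They ran from -4.30 to 15.53, and array medians from 5.86 to 6.07. No detection call was used, and precision is limited by the number of arrays.

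Of 54675 probe sets, 41097 carried 1 symbol in the platform annotation, 1801 several and 11777 none. The 62 control probe sets were left out, and 41043 symbols looked up in RefSeq gave 0 changes. The 4 probe sets that match the rule beside another symbol were not used. Members are in 44 cases read by an _s_at or _x_at probe set, which can also bind related transcripts.

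Tests used limma 3.58.1 (lmFit, then eBayes with trend and robust; R 4.3.3) and were two-sided, and p-values were adjusted over all genes by Benjamini-Hochberg. The p-values measure the spread between these arrays. The members, lists and the choice of this fit were made with earlier results of these data known. Named members are those that passed (up to 15 each way by smallest p), the 4 brightest and 2 dimmest of each subunit, the largest rise and fall of each, and any with a probe set called against its main one; up to 3 called genes of each other list are named, and PRLR. TUFM, NDUFB10, NDUFS7, NDUFB11 and the further members given by role or near the threshold were chosen after their values were seen. The fit was tested on simulated data. Plots used Python 3.11.15 with matplotlib 3.10.9.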

Additional observations from a re-analysis of the deposited data

How the results depend on the processing

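The direction of each of the 5 falls was kept under all settings that held the gene, except for MRPL23. MRPL16 and MRPL46, read only by _s_at probe sets, were absent from the run without these. Limma's default variance model called 4 of all genes, 0 MRPL and 0 MRPS genes, and median centring 589, 0 and 0, with rises at 36.3% of calls beside 43.6%. Quantile normalisation gave 1548 calls, 5 MRPL genes and 1 MRPS gene, among them the 5 of the main fit. Averaging the probe sets of a gene gave 609 calls, 3 MRPL and 0 MRPS genes. Leaving out _s_at and _x_at probe sets gave 1011 calls, 2 MRPL genes, of 28 left, and 1 MRPS gene, of 16 left. The MRPL genes were MRPL1 and MRPL43, and the main fit did not call MRPL43. Leaving out the dimmest 40% (below 5.93) gave 2026 calls, 6 MRPL genes, all lower, and 2 MRPS genes, 1 of which, MRPS16, rose. Leaving out single arrays gave 665 to 1322 calls, 1 to 5 MRPL and 0 to 1 MRPS genes, with medians from -0.08 to -0.03 and from -0.09 to -0.03. MRPL calls numbered 1 without sh-Ctrl replicate 2 and 2 without sh-Ctrl replicate 3. Counting MRPS30 and MRPS18A with the large subunit left 4 and 1 calls. Replicate numbers did not pair the arrays (correlations -0.02, 0.00 and -0.01), and the replicate block gave 1090 calls, 3 MRPL and 0 MRPS genes. Reversed differences were, with all probe sets averaged, MRPL23 0.0908, MRPL47 0.0188, MRPL38 0.0735, MRPL43 -0.16, MTIF3 -0.25 and ATP5MC2 -0.0568; without _s_at and _x_at probe sets, MRPL23 0.41, MRPL43 -0.57 and ATP5MC2 -0.39; with quantile normalisation, MRPL38 0.0117; and over the arrays left out in turn, MRPL57 ran from -0.0436 to 0.0138, MRPL47 from -0.0684 to 0.0132, MRPL38 from -0.087 to 0.0256 and MRPS33 from -0.039 to 0.02. The causes were not tested. Other values of the 18 named members numbered 184 on the same side of the threshold, 26 that lost the call and 2 that gained it, and those of the 14 other named genes 87 and 89 that lost it. The smallest difference among members that passed was -0.22.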
